A study of Mus musculus with 82 samples.

Results

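Plasma cells dissected by laser from peritoneal oil granulomata were compared between the last and the preceding time point of 2 pristane experiments. The samples chosen were the captured-cell arrays of day 105 and day 49 of study 2 and of day 104 and day 46 of study 1, which are 22 of the 82 arrays of the series. Day 105 of study 2 held 6 arrays of 3 specimens, and day 49 held 6 arrays of 3 specimens. Day 104 of study 1 held 5 arrays of 1 specimen, and day 46 held 5 arrays of 3 specimens. Arrays that shared a specimen number were averaged, the test was made in study 2, and study 1 served to compare signs.

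All animals were BALB/c.iMycEμ mice at least 8 weeks old, and all had a peritoneal injection of pristane (0.5 ml), an inflammatory mineral oil hydrocarbon, so that the day 49 and day 46 specimens carried the same Myc allele and the same oil as the later ones. No untreated or wild-type captured cells entered the comparison. Cells positive for methyl green pyronin on frozen sections were taken, their RNA went through a pair of linear amplification rounds, and the product was hybridized to Affymetrix arrays. Whole, undissected granuloma of day 105 and day 49 of study 2, with 3 arrays each, was used to set the captured cells beside their surroundings. The labels do not say whether each specimen number stands for a separate mouse, so p-values measure the spread between specimens as numbered.

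Plasma cells are the antibody-secreting end stage of B cells. They depend on the transcription factors Blimp-1, IRF4 and XBP1 and on a large endoplasmic reticulum, and in BALB/c mice pristane granulomata are the site where their malignant counterpart, the plasmacytoma, arises. In the iMycEμ strain a Myc gene is inserted near the heavy chain intronic enhancer, which mimics the translocation that joins Myc to the immunoglobulin heavy chain locus in these tumours. Most pristane plasmacytomas of BALB/c mice are known to secrete IgA, and IL-6 from the inflamed tissue is known as a growth factor for them.

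All levels are log2 values after robust multichip averaging (RMA), made by the authors. The captured specimens carried plasma cell transcripts at both days. Xbp1, the regulator of the secretory programme, stood at 13.35, 12.70 and 12.81 log2 units in the 3 specimens of day 105, against 12.74, 12.66 and 12.92 in those of day 49. Jchain, which links IgA and IgM chains, stood at 13.11, 12.89 and 12.91 at day 105, against 13.01, 13.03 and 13.26 at day 49. The specimens also carried macrophage and connective tissue transcripts, with Lyz2 (lysozyme of myeloid cells) averaging 11.41 at day 105 and 12.82 at day 49.

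Array quality bore on the comparison. The second array of day 49 specimen 2 had a 99th percentile of 8.70 log2 units, under the limit of 10, and correlated with the other array of that specimen at 0.09, so it was left out and specimen 2 rests on 1 array. The other arrays of the comparison in study 2 had 99th percentiles of 12.45 to 12.54 at day 105 and of 12.45 to 12.55 at day 49. The difference between 3′ and 5′ control probe sets, a sign of RNA length after amplification, was 3.10 to 3.88 log2 units on the arrays of day 105 and 3.78 to 4.25 on those of day 49, so it moved with the day. Day 105 specimen 1 and day 49 specimen 3 correlated at 0.96 across genes, which was above the correlations among the day 105 specimens (0.94 to 0.95).

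Between day 105 and day 49 the IgM heavy chain transcript fell, and so did called markers of macrophages, neutrophils and fibroblasts. A smaller group of genes was higher at day 105, led by the receptor gene Klra17 and holding the ectonucleotidase Entpd1 and the Polycomb gene Bmi1. Transcripts of plasma cell identity, Myc itself and the proliferation marker Mki67 did not pass the test. Of 7629 genes tested, 129 (1.69%) passed an adjusted p of 0.05 in limma, 37 higher (0.485%) and 92 lower (1.21%) at day 105. The median difference over all tested genes was 0.03 log2 units. In all 129 genes the 3 specimens of day 105 and the 3 of day 49 did not overlap, which held for 17.5% of all tested genes. In bulk captured RNA, fewer cells of a type and less RNA per cell cannot be told apart. The number of calls turned on single specimens, with 11 calls without day 49 specimen 1, 15 without day 49 specimen 2, 20 without day 105 specimen 2 and 27 without day 105 specimen 3, against 376 without day 105 specimen 1 and 339 without day 49 specimen 3. The spread was estimated over all 5 days of study 2. From days 105 and 49 alone 7 genes passed, and with the 3′ to 5′ difference as a covariate 6 genes passed. Gpnmb, Entpd1, Mpp7 and Nbea were among them in both fits. Mpp7 entered the test only through the day 105 specimens, where it is high, so its passing lends no support.

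**Figure D1:**
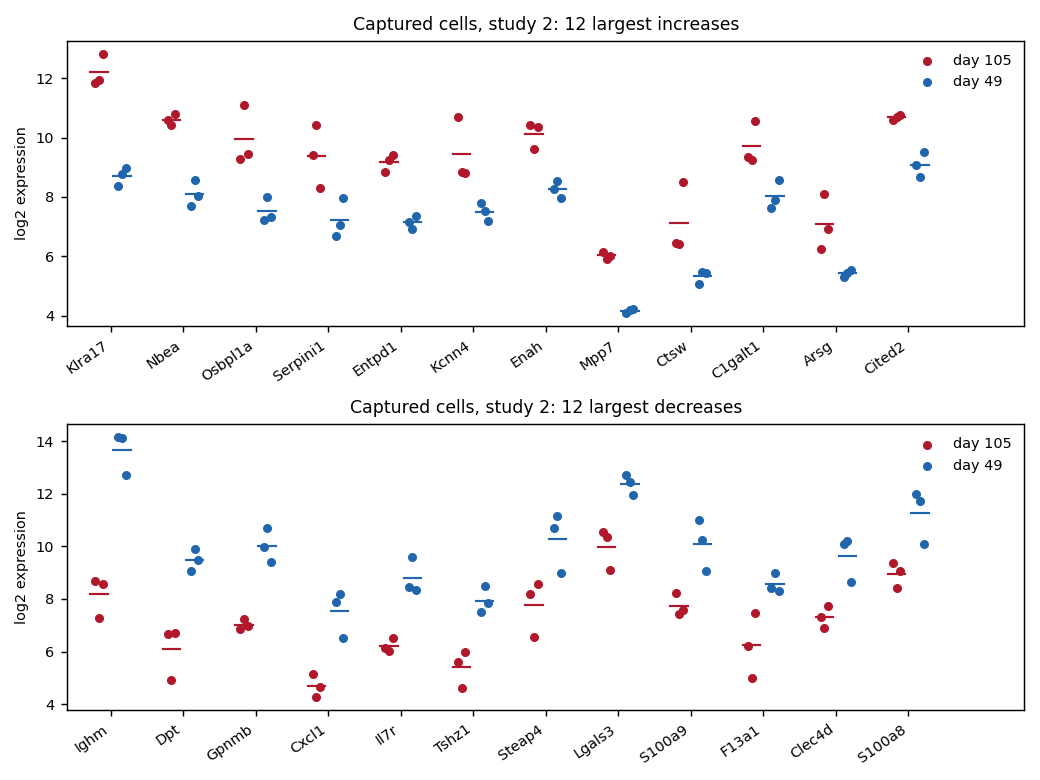
Log2 expression (vertical axes) of the 12 genes with the largest increases and the 12 with the largest decreases in captured cells of study 2, 1 point a specimen, day 105 in red on the left of each pair and day 49 in blue, with horizontal bars at the means of 3 specimens. In each gene the red and blue points do not overlap, and Ighm has the widest gap, with 8.67, 7.29 and 8.55 at day 105 against 14.15, 14.14 and 12.71 at day 49.

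The immunoglobulin heavy chain genes differed from each other between the days. Ighm, the μ heavy chain of IgM, measured 8.67, 7.29 and 8.55 log2 units in the day 105 specimens, against 14.15, 14.14 and 12.71 in the day 49 specimens. Every day 105 specimen was below every day 49 specimen, and the difference of -5.50 ± 0.93 (SE, n = 3 each) is a 45.2-fold lower level (adjusted p = 0.0143). Ighm kept its call in 3 of the 6 fits that left out 1 specimen. Of the 11 probe sets assigned to Ighm, 6 were above the array median in at least 2 specimens of a day. In all 6 each day 105 specimen was below each day 49 specimen, as in 9.1% of all tested genes. Over probe sets, the set used for the test and 1 other passed in limma (adjusted p = 0.0145 and 0.0411). The remaining ones of the 6 did not pass (adjusted p from 0.076 to 0.12). The set used for the test was above the median in 3 specimens of each day. These 6 did not move alike at day 49. One of them, a probe set ending in x_at, read 7.56, 13.27 and 8.99 there and 4.41, 4.67 and 3.22 at day 105. It and another x_at set were above the median in 3 day 49 specimens and 0 day 105 specimens. Both were thus taken in through day 49 alone, and their direction is no separate result. Probe sets ending in x_at or s_at can also bind related immunoglobulin transcripts, so that these levels may hold signal of more than 1 gene.

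The α heavy chain of IgA was near the top of the scale at both days. Igha measured 14.69, 14.70 and 13.90 in the day 105 specimens, against 14.59, 14.69 and 14.56 in the day 49 specimens, and the days overlapped. Another Igha probe set, ending in x_at, read 14.33, 14.41 and 13.14 at day 105, against 14.09, 14.33 and 14.06 at day 49. Readings so near the top of the scale may be capped, so the overlap cannot show whether Igha changed. Ighg3, the γ3 heavy chain, was high in a single specimen of study 2, with 10.51, 4.51 and 4.56 at day 105 against 5.01, 5.63 and 4.92 at day 49. In study 1 the same Ighg3 probe set stood at 4.91 in the day 104 specimen, against 7.68, 13.25 and 8.79 in the day 46 specimens.

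Light chain variable genes differed from specimen to specimen. Of 16 Igkv probe sets, 7 were above the array median in at least 2 specimens of a day. Some of them passed through day 49 alone, such as Igkv15-103 (2 specimens of day 49, 0 of day 105) and Igkv6-15 (3 and 1). A lower mean at day 105 in such sets follows in part from that choice, so their directions are not counted. Igkv19-93 stood at 5.88, 6.14 and 5.56 at day 105, against 7.60, 7.77 and 8.56 at day 49 (adjusted p = 0.132 over probe sets). Igkv6-14 was at 8.54 in day 105 specimen 2 but at 5.02 and 4.26 in the other specimens of that day, against 9.76, 8.28 and 5.24 at day 49. Igkv8-30, whose probe set read 13.24, 13.54 and 13.34 at day 105 and 13.18, 13.51 and 13.38 at day 49, overlapped between the days. In study 1 an Igkv9-120 probe set ending in s_at stood at 10.25 in the day 104 specimen and at 6.35, 6.40 and 5.46 in the day 46 specimens, while another of the same gene, ending in x_at, stood at 3.49 at day 104 and at 9.78, 9.64 and 8.26 at day 46. Over the 11 immunoglobulin genes tested, Ighm alone was called, 10 had a difference below 0, and the median difference was -1.84, against 0.03 for all tested genes. Some of the 11, such as Igkv15-103, were above the array median in 0 day 105 specimens, so the filter on low values leaned towards such differences.

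**Figure D2:**
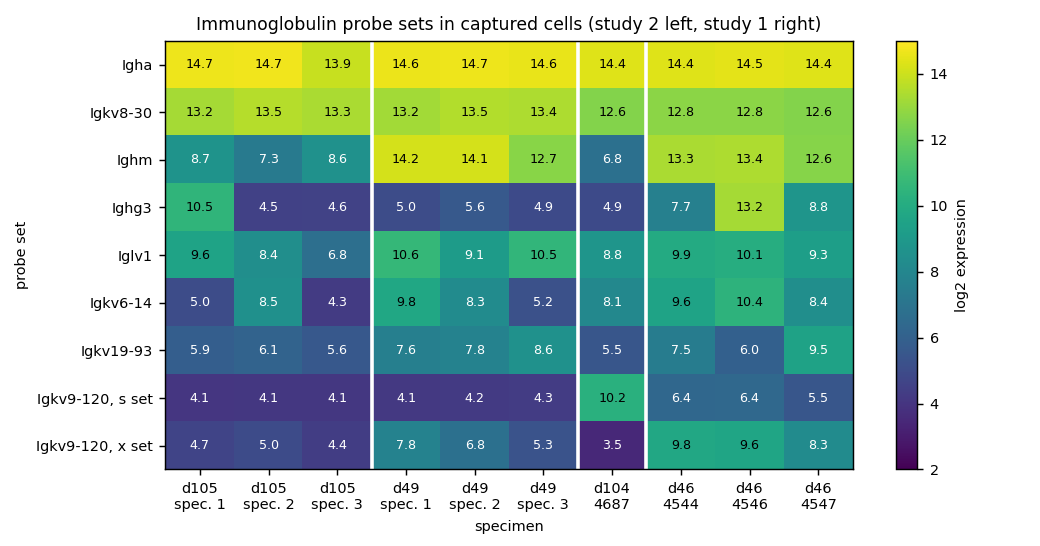
Log2 expression (colour and printed value) of 9 immunoglobulin probe sets (rows) in the 10 captured-cell specimens (columns: day 105 and day 49 of study 2, then day 104 and day 46 of study 1). Igha reads 13.90 or more in every specimen, and the 1 Ighm set shown drops to 6.78 to 8.67 at days 104 and 105. Ighg3 and the Igkv sets differ from specimen to specimen.

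Klra17, of the Ly49 family of lectin-like receptors, had the largest increase. It measured 11.83, 11.95 and 12.83 log2 units at day 105, against 8.36, 8.78 and 8.97 at day 49. The groups did not overlap, and the difference of 3.50 ± 0.70 (SE, n = 3 each) is 11.3-fold (adjusted p = 0.0243). Klra17 kept its call in 2 of the 6 fits that left out 1 specimen. Among the other Ly49 genes, Klra5 was below the filter on low values but read 3.81, 6.79 and 9.62 at day 105, against 3.69, 3.73 and 3.49 at day 49. The probe sets of Klra1, Klra7, Klra8 and Klra16 read between 2.65 and 4.28 in every specimen of both days, while Klra2 read 4.93, 3.17 and 4.36 at day 105 against 3.18, 3.23 and 3.26 at day 49. Ly49 genes are close copies of each other, so a probe set may bind more than 1 of them. Of the 7 T and NK cell markers tested none was called (median difference 0.04), and 3 had a difference below 0. Gzmb, with the lowest p of that list, averaged 6.03 at day 105 and 5.27 at day 49, without overlap (adjusted p = 0.136). The summed level of the list was 682 to 1067 at day 105 and 799 to 895 at day 49.

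Entpd1 encodes CD39, which breaks down extracellular ATP and ADP. It stood at 8.85, 9.25 and 9.42 at day 105, against 7.16, 6.93 and 7.35 at day 49, with a difference of 2.02 ± 0.25 (SE, n = 3 each, adjusted p = 0.00243). Every day 105 specimen was above every day 49 specimen, and Entpd1 kept its call whichever specimen was left out. Its other tested probe set differed by 0.96 and was not called over probe sets (adjusted p = 0.0582). Of the 7 purine signalling genes tested it was the one called. P2ry14, a receptor for UDP sugars, differed by 1.65 (adjusted p = 0.0688), and Nt5e, the ectoenzyme that acts after CD39, by 0.19.

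Of the other large increases, Nbea, a membrane traffic protein that anchors protein kinase A, stood at 10.59, 10.41 and 10.80 at day 105, against 7.71, 8.58 and 8.02 at day 49 (difference 2.50 ± 0.32, adjusted p = 0.00243). Mpp7, a membrane scaffold, stood at 6.13, 5.92 and 6.02 at day 105 and at 4.09, 4.18 and 4.23 at day 49. Its day 49 values lay below the array median, as did its means of 4.25, 4.56 and 4.52 at days 7, 17 and 33. It thus met the filter on low values only through the day 105 specimens, where it is high, and its small spread at day 49 is one of low values. Enah, an actin regulator, differed by 1.87 ± 0.28 (adjusted p = 0.0102). These 3 kept their calls whichever specimen was left out, though the other tested probe set of Enah differed by 1.19 and was not called. Osbpl1a, of the oxysterol-binding protein family, stood at 9.28, 11.11 and 9.46 at day 105, against 7.21, 8.00 and 7.32 at day 49, and its other tested probe set differed by 0.98 and was not called. Kcnn4, a calcium-activated potassium channel, was highest in day 105 specimen 1, at 10.71, with 8.84 and 8.80 in the others of that day and 7.79, 7.53 and 7.20 at day 49, and its other tested probe set was also called (1.75).

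Serpini1, an inhibitor of tissue plasminogen activator, ranged from 8.31 to 10.44 at day 105 and from 6.67 to 7.96 at day 49. Ctsw, a cathepsin of cytotoxic lymphocytes, was at 8.50 in day 105 specimen 3, at 6.43 and 6.42 in the other specimens of that day and at 5.06, 5.47 and 5.43 at day 49. C1galt1, which builds the core of O-linked glycans, rose by 1.68 ± 0.34, and Arsg, a lysosomal sulfatase, by 1.66 ± 0.33 (adjusted p = 0.0243 for both). Cited2, a partner of the co-activators CBP and p300, stood at 10.59, 10.69 and 10.77 at day 105, against 9.07, 8.68 and 9.51 at day 49, and its other tested probe set differed by 1.11 and was not called.

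Bmi1 encodes a subunit of Polycomb repressive complex 1 that cooperates with Myc in mouse lymphoma and represses Cdkn2a. It measured 12.79, 12.17 and 12.45 log2 units at day 105, against 10.50, 11.18 and 11.08 at day 49. The groups did not overlap (difference 1.55 ± 0.30, SE, n = 3 each, 2.92-fold, adjusted p = 0.0216), and a second probe set of the gene also passed, with 1.59. Bmi1 kept its call in 2 of the 6 fits that left out 1 specimen. Of the 17 Polycomb and chromatin genes tested Bmi1 was the one called, with Ezh2 differing by 0.71 (adjusted p = 0.306) and Suz12 by 0.71 (adjusted p = 0.282). Cdkn2a read 5.27, 5.39 and 5.27 at day 105, against 5.32, 5.19 and 5.87 at day 49. Since the strain is built on Myc, the sequence upstream of the Bmi1 start site is shown with its match to the E-box letters CACGTG that Myc and related factors bind, in capitals. It is the plus strand of chr2:18676768-18677017 (GRCm38.p6, RefSeq), and 6.02% of the 32851 promoter entries hold these letters in the same upstream window (the letters read alike on both strands). The match is a description of the sequence and says nothing of binding.
Bmi1: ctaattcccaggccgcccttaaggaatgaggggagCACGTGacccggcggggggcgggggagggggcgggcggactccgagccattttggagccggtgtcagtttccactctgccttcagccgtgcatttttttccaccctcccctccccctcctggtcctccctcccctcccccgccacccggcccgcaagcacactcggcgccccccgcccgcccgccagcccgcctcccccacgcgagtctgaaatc

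Myc itself measured 10.49, 10.74 and 10.45 at day 105, against 10.56, 9.97 and 10.56 at day 49, and the days overlapped (difference 0.20 ± 0.32, adjusted p = 0.838). Of the 8 genes tested in the Myc network list, 1 was called and the median difference was 0.12. That gene was Bmi1, the Polycomb gene described above, which is counted in both lists. Of the 25 Myc target and ribosome biogenesis genes none was called, 22 had a difference above 0, and the median was 0.23. Of the 28 cell cycle and DNA replication genes none was called, though 26 had a difference above 0 and the median was 0.45, against 0.03 for all tested genes. Top2a, the DNA topoisomerase of dividing cells, stood at 9.95, 10.51 and 10.32 at day 105 and at 9.92, 9.31 and 9.43 at day 49 (adjusted p = 0.169). Mki67 read 10.90, 10.84 and 10.93 at day 105, against 10.69, 10.76 and 10.99 at day 49. In study 1 the median over the cell cycle list was -0.05. The D cyclins Ccnd2 and Ccnd1 differed by 0.50 (adjusted p = 0.586) and -0.22 (adjusted p = 0.883).

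None of the 18 tested genes of plasma cell identity was called, and their median difference was 0.20. The summed linear level of the 20 measured members was 35551 to 54946 at day 105 and 32081 to 42558 at day 49, and these ranges overlapped. Prdm1, which encodes Blimp-1, had the largest difference among them, at 9.02, 9.00 and 9.80 at day 105 against 8.22, 7.43 and 8.76 at day 49 (1.13 ± 0.38, adjusted p = 0.149). Its groups did not overlap, as was true of Irf4, with 10.35, 10.13 and 9.71 at day 105 against 9.69, 8.37 and 9.42 at day 49 (adjusted p = 0.281). Cd93 went the other way, also without overlap, averaging 6.97 at day 105 and 8.05 at day 49 (-1.08 ± 0.44, adjusted p = 0.237). Without overlap 4 of the 18 genes were higher and 1 was lower at day 105, while 17.5% of all tested genes did not overlap in either direction. Sdc1, the surface marker CD138, read 10.39, 9.77 and 9.76 at day 105 and 10.12, 9.40 and 9.88 at day 49. Slamf7, a surface receptor of plasma cells, differed by 0.19 ± 0.43, and Tnfrsf17, the BAFF and APRIL receptor BCMA, by -0.05 ± 0.55.

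Of 33 unfolded protein response and secretion genes 1 was called, and the median was 0.03. That gene was Sel1l, a part of the complex that removes misfolded proteins from the endoplasmic reticulum, at 9.89, 9.90 and 9.40 at day 105 against 8.54, 8.79 and 8.94 at day 49 (difference 0.98 ± 0.21, adjusted p = 0.0333). Of the 3 other tested probe sets of Sel1l 1 was called, and their differences ran from 0.10 to 1.51. Edem1, which acts in the same disposal route, stood at 12.52, 12.39 and 12.36 at day 105 and at 11.68, 11.34 and 12.13 at day 49 (adjusted p = 0.126). None of the 15 tested genes of IL-6 and STAT3 signalling was called. Il6 read 5.78, 5.90 and 5.64 at day 105 against 6.89, 7.60 and 5.99 at day 49 (adjusted p = 0.33), Il6ra differed by 0.01 and Stat3 by -0.04. In the Bcl2 family 1 of 11 genes was called, Pmaip1, the pro-apoptotic protein NOXA, which averaged 6.58 ± 0.80 at day 105 and 5.06 ± 0.17 at day 49 (SD, n = 3 each, adjusted p = 0.0417). Pmaip1 was above the array median in 3 day 105 specimens and 0 day 49 specimens. Its pass of the filter on low values thus leaned on day 105, where it is high. Its small SD at day 49 is one of low values.

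B cell genes lay below 0 with 1 call. All 10 tested members of the B cell list had a difference below 0, with a median of -0.77, and 1 was called. Spib, an Ets factor of B cells that is switched off in plasma cells, stood at 4.24, 3.89 and 4.61 at day 105, against 5.97, 7.69 and 5.31 at day 49 (difference -2.07 ± 0.48, adjusted p = 0.0429). The pan-B receptor subunit Cd79a differed by -1.38 (adjusted p = 0.144). The summed level of the 16 measured B cell markers was 798 to 2366 at day 105 and 1923 to 4771 at day 49. Outside the list, Il7r, the IL-7 receptor of lymphoid cells, fell to 6.15, 6.01 and 6.51 at day 105, against 8.45, 9.59 and 8.32 at day 49, and kept its call whichever specimen was left out.

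Macrophage genes gave the longest group of called decreases among the cell type lists. Gpnmb, a glycoprotein abundant in lipid-laden macrophages, measured 6.87, 7.22 and 6.95 at day 105, against 9.96, 10.70 and 9.39 at day 49. It fell by 3.00 ± 0.35 log2 units (SE, n = 3 each), which is 8.00-fold, passed with the smallest adjusted p of the fit (0.00243, shared with 3 other genes) and held in all 19 alternative fits. Of 21 macrophage genes tested 4 fell and none rose, the others being Cd163, a haemoglobin scavenger receptor (-2.26 ± 0.45), Clec4d, a lectin receptor (-2.33 ± 0.50), and Lyz2 (-1.41 ± 0.29). The list's median was -0.53, with 17 of the 21 differences below 0. The 4 above 0 were Marco, Cd5l, Aif1 (0.13) and Lgmn (0.12), none of them past the test. Marco, a scavenger receptor of macrophages, read 7.69, 7.47 and 6.82 at day 105, against 5.46, 4.18 and 4.61 at day 49 (difference 2.58, adjusted p = 0.176). Cd5l, a secreted protein of tissue macrophages, read 9.34, 7.37 and 6.66 at day 105, against 5.71, 6.33 and 4.48 at day 49 (difference 2.28, adjusted p = 0.346). In both genes every day 105 specimen was above every day 49 specimen, so the list held large differences of either sign. The summed level of the 22 macrophage markers was 14248 to 23663 at day 105 and 26140 to 39474 at day 49, and 2 of the 22 lay below the array median in every day 105 specimen.

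Lipid, scavenger and lysosomal genes outside that list were also among the decreases. Plin2, which coats lipid droplets, stood at 9.26, 9.45 and 8.79 at day 105, against 10.74, 10.69 and 10.63 at day 49 (adjusted p = 0.0243), and was the 1 gene called of 15 for lipid uptake and efflux. Stab1, a scavenger receptor of alternatively activated macrophages, fell by 1.35 on the log2 scale (adjusted p = 0.028), and with Cd163 it made up the 2 calls among 10 genes of those macrophages (median -0.72). Arg1, the arginase of those macrophages, read 7.83, 8.17 and 7.75 at day 105, while at day 49 it read 9.12, 9.16 and 5.70. Lgals3, the galectin of activated macrophages, stood at 10.53, 10.34 and 9.09 at day 105, against 12.71, 12.44 and 11.97 at day 49. F13a1, the factor XIII chain made by macrophages, fell by 2.35 (adjusted p = 0.0418). Steap4, a metalloreductase, stood at 8.18, 6.54 and 8.57 at day 105 and at 10.69, 11.15 and 8.98 at day 49. Gpr137b, a lysosomal membrane protein, fell by 2.08 ± 0.32, but its pseudogene Gpr137b-ps moved with it (-2.07 ± 0.41), and near-identical copies may share a probe set's signal.

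The neutrophil list held a pair of large called decreases. S100a8 and S100a9 encode the 2 chains of calprotectin, an abundant protein of neutrophils and inflammatory monocytes. S100a8 read 9.35, 8.41 and 9.08 at day 105, against 11.98, 11.72 and 10.07 at day 49, and S100a9 read 8.21, 7.42 and 7.59 at day 105, against 11.02, 10.24 and 9.06 at day 49. Both were called among 10 neutrophil genes tested (adjusted p = 0.0386 and 0.0249), 9 of the 10 had a difference below 0, and the median was -1.28. The summed level of the 13 measured markers was 841 to 1278 at day 105 and 1992 to 7205 at day 49, and 7 of the 13 lay below the array median in every day 105 specimen. Cxcl1, a chemokine that attracts neutrophils, fell by 2.84 ± 0.63 to 5.16, 4.29 and 4.64 at day 105, against 7.90, 8.17 and 6.52 at day 49. With Ccl9, a chemokine of myeloid cells (-2.12 ± 0.50, adjusted p = 0.0451), it made up the 2 calls among 21 chemokine and receptor genes.

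Fibroblast and matrix genes had differences below 0 in 21 of 22 members tested, with a median of -0.97, and 3 were called. Dcn, the collagen-binding proteoglycan decorin, stood at 11.57, 10.78 and 11.34 at day 105, against 12.78, 13.01 and 12.11 at day 49. Pdgfra, a growth factor receptor of fibroblasts, and Postn, the matrix protein periostin, differed by -1.93 ± 0.44 and -1.77 ± 0.40 (adjusted p = 0.0419 and 0.0417). Dpt, the matrix protein dermatopontin, had the second largest decrease of all genes, at 6.68, 4.92 and 6.71 at day 105 against 9.08, 9.91 and 9.49 at day 49. Col1a1 and Lox did not pass, with -0.46 and 0.06. The summed level of the 22 markers was 15569 to 16549 at day 105 and 19590 to 40711 at day 49. Of 15 matrix proteases and inhibitors 1 was called, the metalloprotease Adam8, at 4.85, 5.21 and 4.71 at day 105 against 7.79, 7.20 and 6.08 at day 49. C1ra, a complement protease (-1.57), Ndn, an imprinted growth suppressor (-1.56), and Lgals1, a galectin of stroma and plasma cells (-1.36), were the single calls of their lists. Tshz1, a zinc finger factor, fell by 2.53 ± 0.36 and kept its call whichever specimen was left out.

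Other stromal lists had medians below 0 and no calls. None of the 12 endothelial genes was called, and all 12 had a difference below 0 (median -0.38). None of the 8 adipocyte genes was called, with all 8 below 0 (median -1.19), and their list's summed level over 11 measured markers was 1424 to 2479 at day 105 and 2968 to 11076 at day 49. The MHC class II genes had a median of -0.08 and the interferon response genes of 0.20, each with no call. Summed marker levels of macrophages, neutrophils, fibroblasts and adipocytes thus lay lower in every day 105 specimen than in any day 49 specimen. Such sums weigh the most abundant members most. Gene by gene this held for 8 of 21 macrophage, 5 of 10 neutrophil, 9 of 22 fibroblast and 3 of 8 adipocyte genes. It held for 9.1% of all tested genes. In every day 105 specimen 2 of the macrophage genes were higher, and 0 of the other 3 lists. The part of these cell types in the calls of other genes was not tested.

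**Figure D3:**
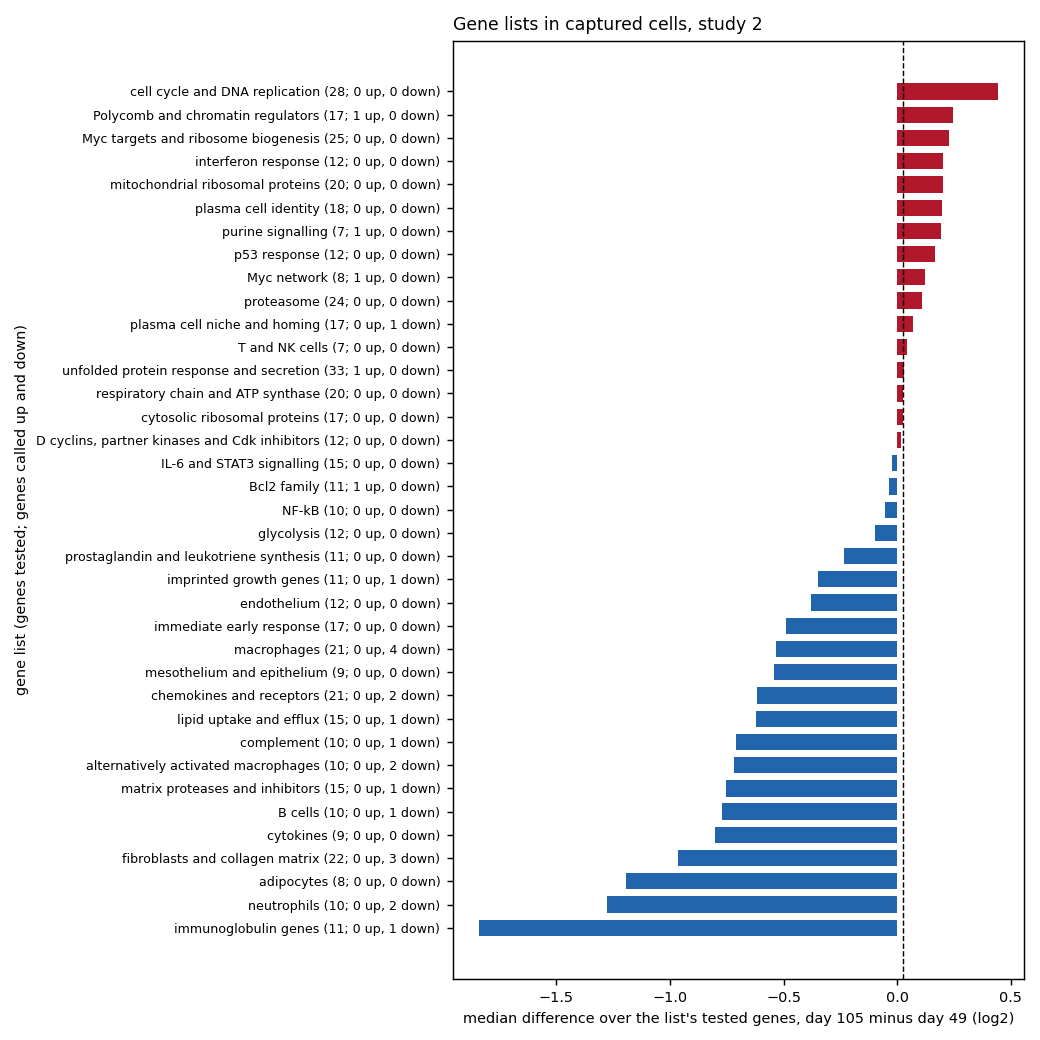
Median log2 difference, day 105 minus day 49, over the tested genes of each list with at least 7 of them, with the number tested and the numbers called higher and lower in brackets; the dashed line is the median of all 7629 genes (0.03). The immunoglobulin, neutrophil, adipocyte and fibroblast lists lie farthest to the left, and the cell cycle list, with no call, farthest to the right.

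Over the 5 days of study 2 the called genes did not share 1 course. Ighm averaged 14.67, 14.65, 12.58, 13.67 and 8.17 at days 7, 17, 33, 49 and 105. Gpnmb averaged 6.25, 7.89, 9.23, 10.02 and 7.02, so that its day 105 level lay between those of days 7 and 17. Klra17 averaged 6.05, 7.42, 9.83, 8.70 and 12.20, and Bmi1 9.67, 10.07, 11.37, 10.92 and 12.47. Entpd1 changed little up to day 49, with means of 6.67, 6.80, 7.27 and 7.15, and stood at 9.17 at day 105. The SD over 3 specimens ran from 0.03 to 2.83 for Ighm, the widest at day 33, and from 0.31 to 1.63 for Klra17. These means are a description, since the test concerned days 105 and 49.

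**Figure D4:**
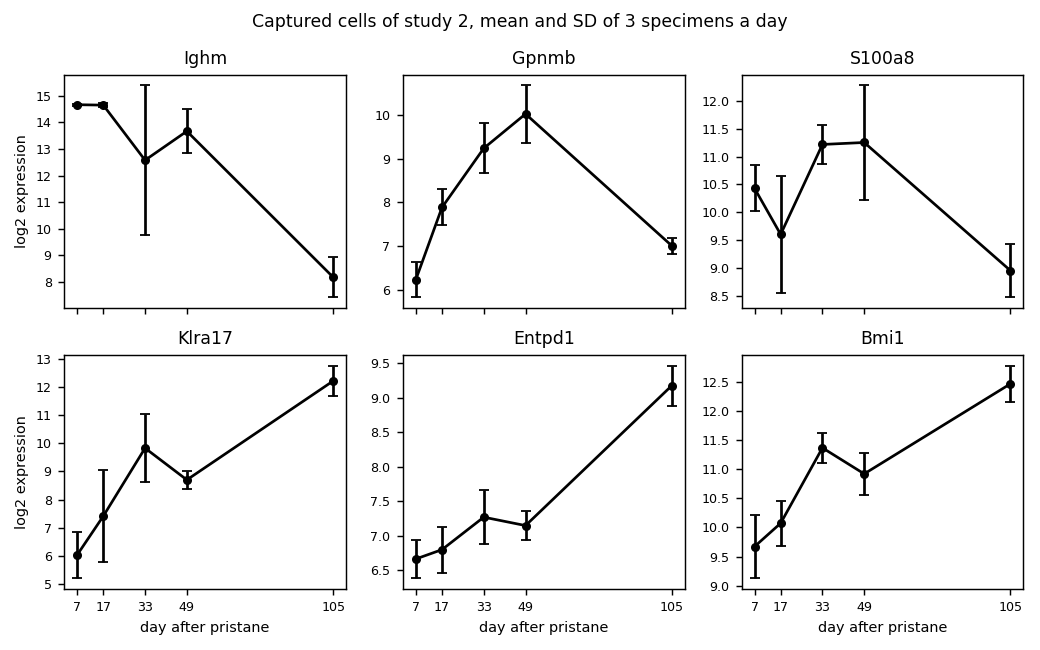
Mean log2 expression of 6 genes in captured cells of study 2 by day after pristane (horizontal axis, linear), with SD bars over 3 specimens a day; vertical axes differ between panels and do not start at 0. Gpnmb climbs to 10.02 at day 49 and is at 7.02 at day 105, while Klra17, Entpd1 and Bmi1 have their highest means at day 105.

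Study 1 gave the same sign in 126 of the 129 called genes (97.7%), against 66.5% of all tested genes. The day 104 value comes from 1 specimen, so study 1 has no test. In 120 of the 129 genes that specimen lay beyond all 3 day 46 specimens in the direction seen in study 2. The same share over all tested genes was not taken, so this count too is a description. On the probe set used for the test, Ighm stood at 6.78 in the day 104 specimen, against 13.33, 13.42 and 12.62 in the day 46 specimens. The 5 arrays of the day 104 specimen ran from 5.65 to 9.07 on that set. Over the 6 Ighm sets above the array median in study 2, the study 1 differences ran from -2.76 to -6.41. The set with the smallest of these still read 10.63 at day 104. Gpnmb stood at 4.97 at day 104, against 9.30, 9.63 and 8.52 at day 46. Klra17 stood at 11.56 at day 104, against 8.22, 9.64 and 8.57 at day 46, and Osbpl1a at 9.60, against 6.87, 6.57 and 6.30. Some changes were small there, as in Entpd1, at 6.98 against 6.59, 6.70 and 6.87, and in Cd163, at 3.77 against 4.12, 4.05 and 4.06. The exceptions in sign were Hoxd8 (-0.79), Pmaip1 (-0.03) and Cox20 (0.14). Medians of the cell type lists in study 1 were -1.52 for macrophages, -1.25 for neutrophils and -1.31 for fibroblasts, the same sign as in study 2. With 1 specimen at day 104 these medians cannot tell the day from that specimen. The labels give no sex. Eif2s3y, a Y-linked gene, read 3.38 to 4.64 on the day 104 captured-cell arrays, against 7.93 to 8.42 on the whole granuloma arrays labelled with the same specimen code. Xist, the transcript of the inactive X chromosome, read 3.50 to 4.67 on the day 104 arrays and 3.37 to 11.81 on the day 46 arrays of study 1, while in study 2 it read 10.05 or more at day 105 and 9.21 or more at day 49.

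**Figure D5:**
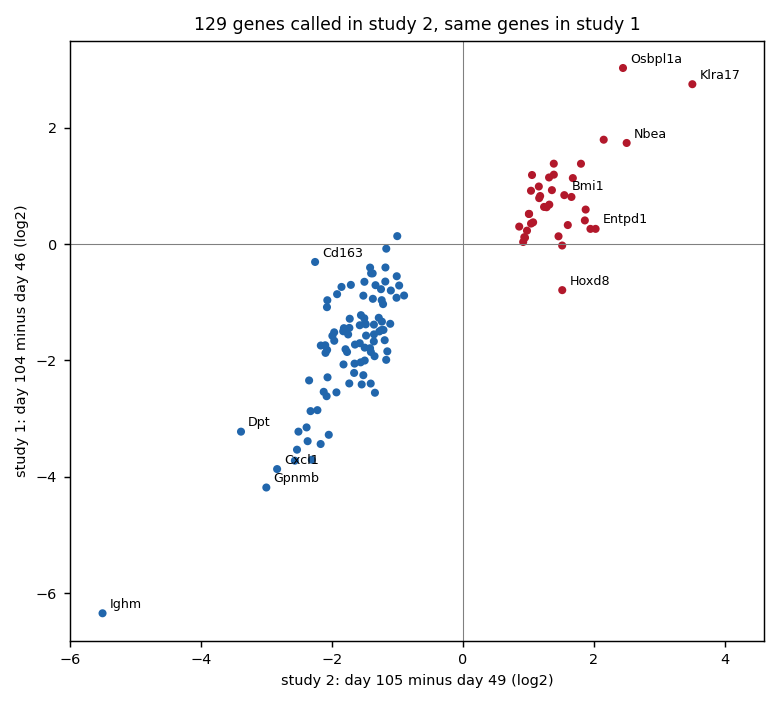
Log2 difference of the 129 called genes in study 2 (horizontal axis, day 105 minus day 49, means of 3 specimens each) against study 1 (vertical axis, day 104, 1 specimen, minus the mean of 3 specimens of day 46), red for genes higher and blue for genes lower in study 2. Points lie in the lower left and upper right, apart from Hoxd8 (1.52 in study 2, -0.79 in study 1), Pmaip1 and Cox20.

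Whole granuloma of study 2 was set beside the captured cells to ask whether these changes were particular to the dissected cells. All 129 called genes had the same sign in whole granuloma between day 105 and day 49. The share of all tested genes with the same sign there was not taken, so this count is a description. In whole granuloma 1742 of the 7629 genes (22.8%) passed the adjusted p of 0.05 in the joint fit, among them 111 of the 129, which is 86.0% of the captured-cell calls and 6.37% of the whole granuloma calls. The test of the difference between both changes called 0 of the 7629 genes in limma (0%), while 461 had an unadjusted p under 0.05. Gpnmb fell by 3.00 in captured cells and by 1.26 in whole granuloma, and the difference of these changes had an adjusted p of 0.758. Klra17 differed by 3.50 in captured cells and 3.43 in whole granuloma, and Ighm by -5.50 and -3.56. Ighm read 14.61, 14.65 and 14.66 in whole granuloma at day 49, near the top of the scale. The size of its fall there may therefore be capped, and these Ighm differences are not a comparison of size. Of the 129 genes 60 changed by more in captured cells than in whole granuloma. Without day 49 specimen 3 the test of the difference called 11 genes.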

How the data were processed

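Expression values were used as deposited, on a log2 scale, in 1 table of 22690 probe sets. The submitters' processing notes name RMA and Partek. Their versions, and any further step, are not stated in the sources used here. The arrays' number limits precision. Of the probe sets 20380 had 1 gene symbol in the given annotation, and the set with the highest mean over captured-cell arrays stood for each of 12393 genes. A gene was tested when above the array median in at least 3 of 15 specimen averages of study 2 (5 days), which left 7629. Days 105 and 49 were compared with limma 3.58.1 in R 4.3.3 (lmFit, eBayes), with Benjamini-Hochberg adjustment over all genes and a threshold of 0.05. The fit was tested on simulated data. The comparison with whole granuloma added its arrays with the specimen as a random block (correlation 0.16). Summed levels are sums of unlogged values over a list's measured genes. Each fold is 2 raised to the size of the log2 difference.

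The naming rule took the 12 largest increases and decreases past the threshold that did not overlap between days and had the same sign in study 1. It also took up to 4 called members of each list, or the member with the lowest p where none was called. A fixed set of plasma cell, Myc and Ly49 genes and all immunoglobulin probe sets completed it. Of the lowest-p members only some are described in the text. P2ry14, Nt5e, Ezh2, Suz12, Cd79a, Cd93, Marco, Cd5l, Lgmn, Aif1, Col1a1, Lox, Gpr137b, Hoxd8 and Cox20 fall outside that rule and were named after their values were seen. Members and lists were chosen with earlier results of these data known. Specimen numbers 1 to 3 recur at both days, but the labels do not tie them to shared litters or batches, and same-numbered specimens' deviations correlated at 0.07, -0.31 and -0.01, so they were not paired. Alternatives changed scaling, filter, probe set, blocks, covariate, and the arrays or specimens used. The deposited table was the sole source of expression values.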

Additional observations from a re-analysis of the deposited data

Results flagged for a closer look

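The second array of day 49 specimen 2 in study 2 stood apart from the other 5 captured-cell arrays of that day in all 3 quality measures, with a median of 5.64, a 99th percentile of 8.70 and a 3′ to 5′ control difference of 0.46 log2 units. For a single measure, chance sets an array apart in this way in about 1 group in 20. It was left out of the comparison under the limit on the 99th percentile. With it the count of called genes was 8 and the median difference over all genes was 0.27. Hoxd8, a homeobox gene, was higher at day 105 in study 2 (6.75, 7.19 and 7.14 against 5.88, 5.46 and 5.20 at day 49), while the day 104 specimen of study 1 was below all day 46 specimens and differed from their mean by -0.79. Cox20, an assembly factor of cytochrome oxidase, was lower at day 105 in study 2 (7.43, 6.87 and 6.87 against 8.16, 7.82 and 8.19 at day 49), while the day 104 specimen was above all day 46 specimens and differed from their mean by 0.14. The difference between the studies was not tested for either gene.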

How the results depend on the processing

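The count of 129 called genes depended on the fit. It was 117 after quantile normalization, 124 with arrays centred on their medians, 140 with arrays not averaged, 126 with the probe set of largest variance and 147 with a stricter filter. It was 81 with no filter, 80 with lettered arrays as separate specimens, 343 with captured specimens of both studies and 335 with all groups in the fit. It was 7 from days 105 and 49 alone, 6 with the 3′ to 5′ control difference as a covariate and 8 with no array left out. Leaving out 1 specimen gave 11 to 376 calls. With the specimen number as a replicate block it was 116, of which 103 were among the 129, and same-numbered specimens share only a number. Of the 129 genes 128 kept their sign in all 19 alternatives wherever they were tested, the exception being Aopep, and 8 kept their call in all 6 fits that left out 1 specimen, while Socs2 and Psd3 kept it in 0 of them. Of the 42 genes under the naming rule that did not pass, some of which the text does not describe, 16 changed sign and 12 passed in some alternative. The comparison of the captured-cell change with that of whole granuloma called 0 genes (461 at an unadjusted p under 0.05 in limma) and called 0 to 11 with 1 specimen left out, the 11 without day 49 specimen 3. The share of the same sign in study 1 ran from 96.9% to 98.4%. The cause of these differences was not tested.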

Other observations

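Tnfrsf13c and Cxcl9 are named here after their values were seen, and neither passed the test in limma. Tnfrsf13c, the BAFF receptor, read 8.83, 8.40 and 7.71 at day 105, against 7.10, 7.24 and 6.96 at day 49 (adjusted p = 0.0862). Cxcl9, a chemokine induced by interferon, read 9.59, 5.88 and 7.56 at day 105, against 4.91, 7.20 and 4.98 at day 49 (adjusted p = 0.244).

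The captured cells and the whole granuloma labelled with the same day 104 code of study 1 differed in Y-linked transcripts. Eif2s3y read 3.38 to 4.64 on the 5 captured-cell arrays, against 7.93 to 8.42 on the 3 whole granuloma arrays, and Kdm5d read 2.94 to 4.14, against 6.11 to 6.93. Xist read 3.50 to 4.67 on the captured-cell arrays and 3.36 to 3.69 on the whole granuloma arrays. On the day 46 captured-cell arrays of study 1 Eif2s3y ran from 2.72 to 8.72.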
